A study of Mus musculus with 4 samples.

Results

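The SOCS family and the phosphatases PTP1B and TC-PTP are the main brakes on cytokine signaling through JAK kinases and STAT transcription factors. The 10 genes described here were chosen by name and were found in the count table by their NCBI gene IDs, 10 of 27179 listed genes. They are the 8 SOCS family genes Socs1 to Socs7 and Cish, and the 2 phosphatase genes Ptpn1 and Ptpn2. All 10 passed the filter on low counts and were tested. Gene positions are RefSeq spans on build GRCm38.p6, which is mm10, the build named in the submitters' processing notes.

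MC38, a mouse colon cancer cell line of wild-type (WT) genotype, was sequenced as 1 library for each of 4 conditions, so no condition had a replicate. The conditions were untreated control cells and IFN-γ treated cells, each under normoxic and under hypoxic conditions. The methods of the study give 5 ng/mL IFN-γ for 24 h for most experiments, with 20% oxygen for normoxia and 1.5% for hypoxia. RNA was poly-A selected and the authors deposited unnormalized read counts per gene.

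IFN-γ binds a receptor that activates JAK1 and JAK2, which phosphorylate STAT proteins. Some SOCS proteins are made in response to such signals and close the loop. Proteins of the family bind phosphorylated receptors or JAKs through an SH2 domain and recruit a ubiquitin ligase through the SOCS box. SOCS1 and SOCS3 also block the kinase directly. SOCS1 is known as the main inducible brake on IFN-γ signaling and SOCS3 on signaling through gp130, the shared receptor of IL-6 type cytokines. CISH and SOCS2 act mainly on STAT5 signals, and PTP1B and TC-PTP remove phosphate from JAKs and STATs and are present in many cell types without a stimulus.

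The promoters of the genes that changed most, Socs1 and Socs3, are shown first because the interferon-linked motifs of the family differ between them. RefSeq windows on build GRCm38.p6, of 250 bases before and 50 bases after an annotated start, were found for 5 of the 10 genes, Socs1, Socs3, Socs4, Cish and Ptpn1. The 250 bases before the start of Socs1 (chr16:10785537-10785786, minus strand) and of Socs3 (chr11:117969367-117969616, minus strand) follow, and capitals mark matches to an ISRE core (GAAA, any 2 bases, GAAA, on both strands), which IRFs and the ISGF3 complex bind, or to a GAS site (TTCNNNGAA, the same on both strands), which STAT dimers bind. The last line gives 28 bases of Cish (chr9:107296655-107296682, plus strand) around its start. The Socs3 stretch lies inside the longest RefSeq span of that gene, since its window is set on an inner start.
Socs1: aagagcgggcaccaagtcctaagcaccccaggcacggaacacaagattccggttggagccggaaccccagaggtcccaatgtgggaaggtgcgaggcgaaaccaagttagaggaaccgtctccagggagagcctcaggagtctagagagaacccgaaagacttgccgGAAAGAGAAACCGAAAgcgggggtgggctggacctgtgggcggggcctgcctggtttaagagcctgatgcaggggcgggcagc
Socs3: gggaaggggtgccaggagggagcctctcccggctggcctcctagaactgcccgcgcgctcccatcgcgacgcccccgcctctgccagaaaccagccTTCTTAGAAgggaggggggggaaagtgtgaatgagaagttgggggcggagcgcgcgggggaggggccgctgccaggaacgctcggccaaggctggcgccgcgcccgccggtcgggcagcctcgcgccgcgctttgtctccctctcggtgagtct
Cish: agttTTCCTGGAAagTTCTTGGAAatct

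Socs1 held 2 overlapping ISRE core matches, GAAAGAGAAA starting 83 bases and GAAACCGAAA starting 77 bases before the start, and no GAS match. Socs3 held 1 GAS match, TTCTTAGAA, 154 bases before the start, and no ISRE core. Cish held 2 GAS matches, both just after its annotated start. Neither motif was found in the windows of Socs4 and Ptpn1. Among all 32851 RefSeq windows of the same length, 3.44% held an ISRE core and 8.30% a GAS match. The core of the hypoxia response element (ACGTG, both strands), which was in 19.6% of all windows, was found only in Cish among the 5 windows, with 2 matches. These matches are letters in a window and do not show that a factor was bound.

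The libraries held between 34302971 and 34537939 counts, and the genes used to check the labels moved as labelled. Irf1, an interferon-induced transcription factor, was counted 3770 and 4422 times without and 20118 and 23759 times with IFN-γ, and the hypoxia target Car9 had 422 and 324 counts under normoxic and 1733 and 1536 under hypoxic conditions. Of 9 epithelial markers, 5 (Epcam, Cdh1, Krt18, Cdx1 and Cdx2) were at or under 3 counts in every library, so the colon origin was not visible in them. The epithelial list summed to 3.29 and 3.04 CPM (counts scaled to library size) in the control libraries and to 2.58 and 2.47 CPM in the IFN-γ libraries. Krt8 had 90 and 56 counts in the normoxic and 56 and 48 in the hypoxic pair and Krt19 had 2 and 2, and 18 and 0, while Krt20 (12 and 14, 18 and 22) and Vil1 (7 and 17, 13 and 13) were not lower with IFN-γ in either pair. The immune markers Cd3e, Itgam and Adgre1 were at or under 3 counts in all libraries, whereas Cd68 (170 to 236 counts) and Lyz2 (69 to 96 counts), markers of macrophages, were counted in every library and made up most of the immune list's sum of 7.41 to 9.82 CPM. The 5 fibroblast markers, mostly Pdgfra, summed to 43.7 and 46.4 CPM in the normoxic and hypoxic control and to 40.4 and 38.4 CPM with IFN-γ. The 3 endothelial markers summed to 0.753 to 1.46 CPM. The part of these marker levels in the changes below was not tested.

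In the presence of IFN-γ, 2 of the 10 genes rose, Socs1 and Socs3, and none fell. Over all 13580 genes tested, 4.76% were raised and 1.1% lowered by the same rule, an adjusted p under 0.05 in the quasi-likelihood test of edgeR. At an unadjusted p under 0.05 in this fit Socs7 was also higher, with an edgeR p of 0.0071. No member was lower at that limit, and DESeq2 lowered none. The median log2 change of the 10 genes was 0.04, against -0.01 over all genes tested. The model was additive in IFN-γ and oxygen over the 4 libraries and had 1 residual degree of freedom per gene. Its spread was a common trend over all tested genes, drawn from how far IFN-γ changes under both oxygen levels departed from each other. A standard error thus did not follow the departure of its own gene, and the p-value of a gene does not measure that departure. Variation between replicate cultures was not measured on its own. Counts of this kind cannot tell more RNA per cell from more cells that carry it.

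Socs1 (chr16:10783808-10785536) was counted 492 times without and 1220 times with IFN-γ in normoxia, and 371 and 1187 times in hypoxia. Both IFN-γ libraries lay far above both control libraries, though how many of all genes separate so was not counted. The lowest of the 4 was the hypoxic control. The gene was thus 2.50-fold higher with IFN-γ in the normoxic pair, or 1.32 on the log2 scale with a 95% interval of 1.17 to 1.48, and 3.23-fold higher in the hypoxic pair, or 1.69 with an interval of 1.52 to 1.86. Over both pairs the fitted change was 2.83-fold, with a standard error of 0.0909 log2 units and an edgeR adjusted p of 5.83e-59. All 7 alternative fits gave larger values, from an adjusted p of 6.94e-19 in DESeq2 to 0.00320 in edgeR without oxygen in the model. The intervals of single pairs are exact Clopper-Pearson intervals of the 2 counts and cover counting error only.

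Socs3 (chr11:117966079-117970336) was counted less often, 271 and 465 times in normoxia without and with IFN-γ, and 249 and 525 times in hypoxia. The groups with and without IFN-γ did not overlap, though how many of all genes separate so was not counted. With IFN-γ it was 1.73-fold higher under normoxic conditions, or 0.79 in log2 units (95% interval 0.57 to 1.02), and 2.13-fold higher under hypoxic conditions, or 1.09 (95% interval 0.87 to 1.31). Fitted over all libraries, its log2 change was 0.94, with a standard error of 0.121 and an edgeR adjusted p of 4.11e-13. Its adjusted p was larger in all 7 alternative fits, at 0.000597 in DESeq2 and up to 0.0198 in edgeR. Socs1 and Socs3 were also the genes at least 1.5-fold higher with IFN-γ in both pairs, 2 of 10 genes against 3.09% of all genes tested, and no gene of the 10 was at least 1.5-fold lower in both pairs, against 0.714%.

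Socs7 (chr11:97362292-97398542), which has been linked to insulin signaling and to the movement of STATs and the adaptor NCK, was higher with IFN-γ in both pairs by a small amount. Its counts were 2103 and 2417 under normoxic and 2251 and 2482 under hypoxic conditions. Both IFN-γ libraries exceeded both controls, though how many of all genes do so was not counted. The log2 changes were 0.21 (95% interval 0.13 to 0.30) and 0.15 (95% interval 0.07 to 0.24). The additive estimate of 0.18 (standard error 0.0684) did not pass the threshold, with an edgeR adjusted p of 0.101.

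**Figure D1:**
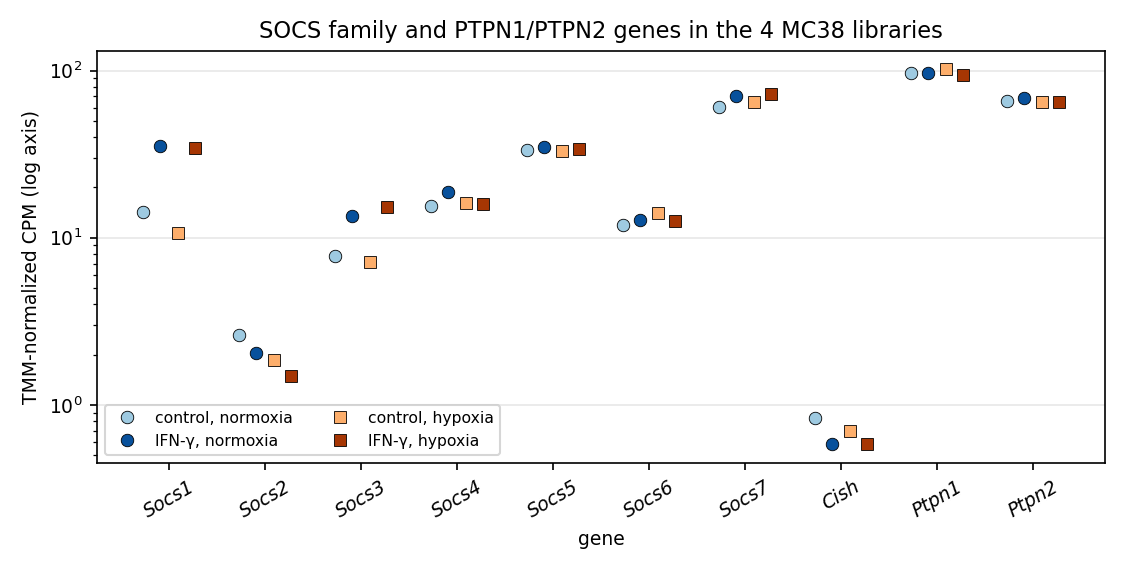
TMM-normalized CPM (log axis) of the 10 genes, with 1 point for each of the 4 libraries and no error bars because no condition had a replicate. Libraries with and without IFN-γ do not overlap for Socs1, Socs3, Socs5 and Socs7, which are higher, or for Cish, which is lower. How many of all genes separate so was not counted. Cish and Socs2 are the least counted genes, between 0.583 and 2.63 CPM.

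The other SOCS genes with known roles in growth factor and cytokine signals showed no call. Socs4 (chr14:47276920-47296102) was counted 539 and 640 times in normoxia and 561 and 548 times in hypoxia. Its single IFN-γ library under normoxic conditions stood above the other 3, and the additive log2 change was 0.12 (standard error 0.0999). Socs5 (chr17:87107278-87137647), which like Socs4 has been tied to the EGF receptor, had between 1138 and 1198 counts in the 4 libraries, with log2 changes of 0.06 and 0.05 in the normoxic and hypoxic pair. For Socs5 too, both IFN-γ libraries exceeded both controls, though how many of all genes do so was not counted. Socs6 (chr18:88865169-88894364), which binds receptor kinases such as KIT, was counted 414 and 436 times in normoxia and 487 and 432 times in hypoxia. Here the hypoxic control was the highest library, and the IFN-γ pairs gave 0.09 in normoxia and -0.16 in hypoxia, with intervals that both held 0.

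Socs2 and Cish, the genes most closely tied to STAT5, had few counts and no call. Socs2 (chr10:95383903-95417321), a brake on growth hormone signals, had 91 and 70 counts under normoxic and 64 and 51 under hypoxic conditions. Both IFN-γ libraries were below the control of their own oxygen level, and the fitted value of -0.34 (standard error 0.267) had an edgeR adjusted p of 0.685. Cish (chr9:107296659-107302784) was counted 29 and 20 times in normoxia and 24 and 20 times in hypoxia, and its estimate of -0.39 had a standard error of 0.458. Both IFN-γ libraries of Cish lay below both controls, though how many of all genes do so was not counted. At this depth its counting interval in the normoxic pair ran from -1.42 to 0.35. Its exons also overlap 2 annotated genes on the opposite strand, Gm17040 and Gm17041, and how strand was treated in counting is not given in the sources used here.

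Ptpn1, which encodes PTP1B, and Ptpn2, which encodes TC-PTP, were the most abundantly counted of the brakes along with Socs7 and had no call. Ptpn1 (chr2:167930750-167979385) was counted 3350 and 3326 times in normoxia and 3511 and 3218 times in hypoxia. Its IFN-γ change was 0.00 under normoxic conditions (95% interval -0.07 to 0.07) and -0.11 under hypoxic conditions (95% interval -0.18 to -0.04), and the additive estimate of -0.05 (standard error 0.0630) had an edgeR adjusted p of 0.839. Ptpn2 (chr18:67665501-67724632) had 2273 and 2340 counts under normoxic and 2250 and 2220 under hypoxic conditions, with a fitted value of 0.02 (standard error 0.0687) and an edgeR adjusted p of 0.955. The counting intervals of Ptpn2 were -0.03 to 0.14 in the normoxic and -0.09 to 0.08 in the hypoxic pair.

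**Figure D2:**
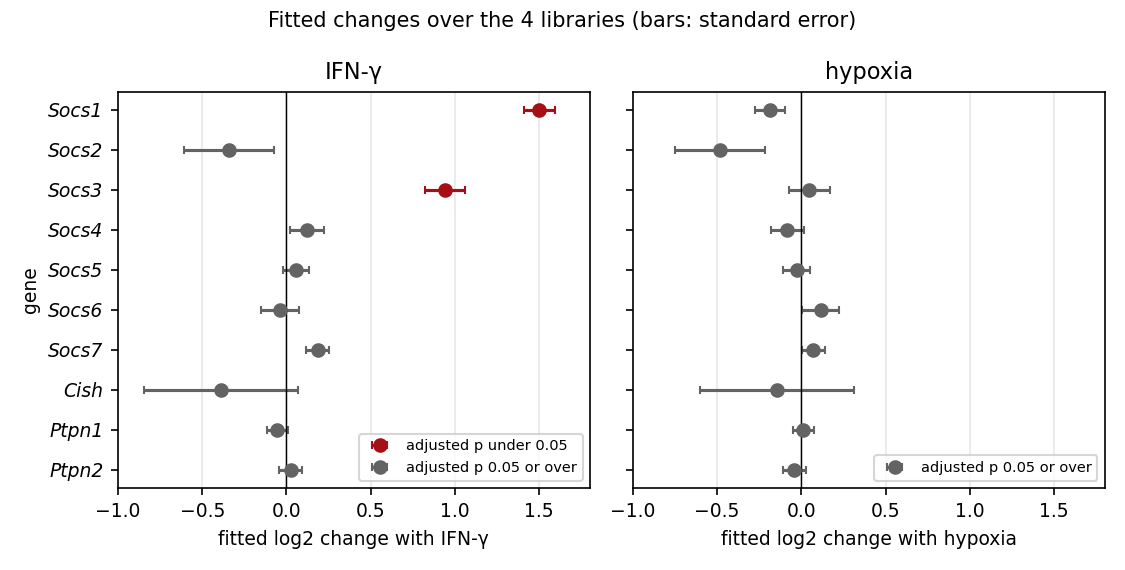
Fitted log2 changes with IFN-γ (left) and hypoxia (right) from the additive edgeR model over 4 libraries, with standard errors as bars and an adjusted p under 0.05 in red. Socs1 (2.83-fold) and Socs3 (1.92-fold) with IFN-γ are the called genes, and no gene is called for hypoxia.

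Hypoxia changed none of the 10 genes at an adjusted p under 0.05 in edgeR, against 8.21% of all tested genes raised and 6.83% lowered. At an unadjusted p under 0.05 edgeR gave Socs1 as lower and no other member, and DESeq2 gave none. The largest estimate was that of Socs2, with a log2 change of -0.48 (standard error 0.267) and an edgeR adjusted p of 0.238. Its hypoxia changes were -0.50 in the control pair and -0.45 in the IFN-γ pair. No gene of the 10 was at least 1.5-fold higher or lower with hypoxia in both pairs, against 2.56% and 0.729% of all tested genes. The median log2 change of the 10 genes with hypoxia was -0.04, against 0.00 over all genes.

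The hypoxia values of Socs1 are given for each pair. Between the control libraries it was lower under hypoxic conditions, by a log2 difference of -0.40 (95% interval -0.60 to -0.21). For the treated libraries it was -0.04 (95% interval -0.15 to 0.08), so these stood at nearly the same level, 35.6 and 34.6 CPM, from unequal controls of 14.2 and 10.7 CPM. The additive estimate for hypoxia, -0.19 (standard error 0.0893), had an edgeR adjusted p of 0.151. Socs3 showed a hypoxia change of -0.12 (95% interval -0.37 to 0.13) without and 0.18 (95% interval -0.01 to 0.36) with IFN-γ.

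The IFN-γ change was compared between the oxygen levels as the change in the hypoxic pair minus that in the normoxic pair. Without replicates this difference could not be tested, and its interval covers counting error only. For Socs1 it was 0.37 (95% interval 0.14 to 0.59) and for Socs3 it was 0.30 (95% interval -0.01 to 0.60). Socs4 and Ptpn1 had differences below 0, of -0.28 (95% interval -0.52 to -0.05) and -0.12 (95% interval -0.21 to -0.02). The interval left out 0 for these 3 genes, Socs1, Socs4 and Ptpn1, and did so for 30.3% of all tested genes, so 3 of 10 is the share that genes showed in general.

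Low counts in these libraries were more often even than odd. In the normoxic control, 1091 genes had 2 counts and 517 had 1, and between 61.8% and 63.0% of the values from 1 to 50 counts were even, while above 1000 counts the share was 49.8% to 50.6%. Each fragment was sequenced from both ends, so the intervals were computed again from halved counts. With halved counts the interval of the difference left out 0 for Socs1 alone (0.05 to 0.68), against 16.4% of all tested genes. The hypoxia change of Socs1 between the controls kept an interval below 0 with halved counts (-0.69 to -0.12), and in that pair Socs2, Socs6, Socs7 and Ptpn1, whose intervals had left out 0 before, no longer did. With IFN-γ the intervals of Socs1, Socs3 and Socs7 stayed above 0 in both pairs. That of Socs4 stayed above 0 in the normoxic pair and that of Ptpn1 below 0 in the hypoxic pair. The share of all tested genes whose single-pair interval leaves out 0 was not counted, so these exclusions have no background.

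**Figure D3:**
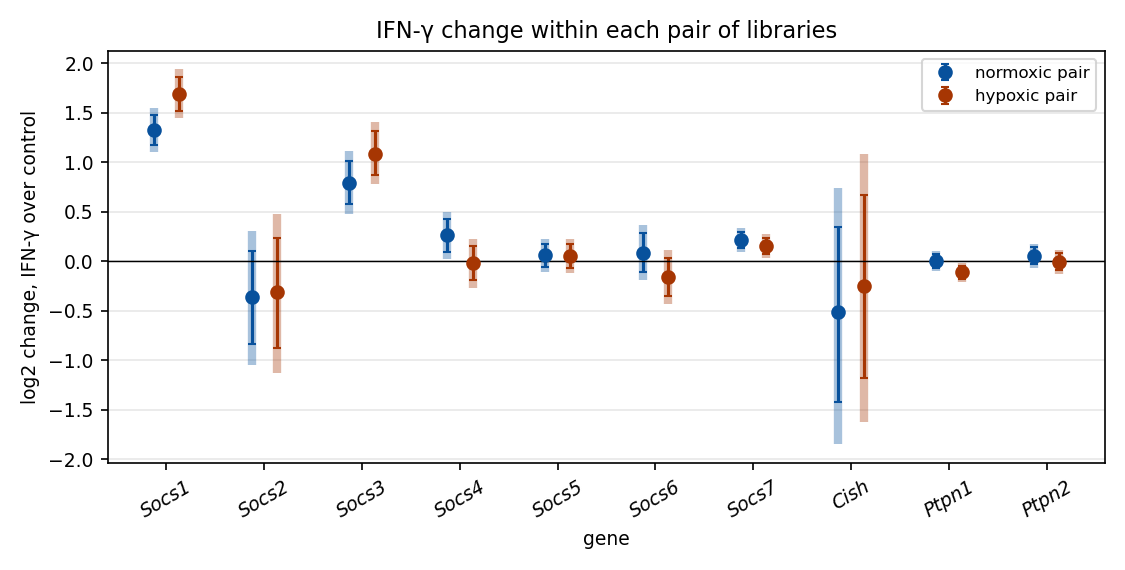
Log2 change with IFN-γ in the normoxic pair (blue) and the hypoxic pair (brown) of libraries for each gene, with 95% counting intervals as thin bars and those from halved counts as wide pale bars. Socs1 (1.32 and 1.69) and Socs3 (0.79 and 1.09) lie above 0 in both pairs, and the intervals of Cish are the widest.

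Levels of different genes were compared as CPM per kilobase of the longest coding transcript in GENCODE M21. Ptpn2 and Ptpn1 were highest in all 4 libraries, at 24.3 to 25.6 and 22.3 to 24.1 CPM per kilobase. Without IFN-γ they were followed by Socs7 (8.66 and 9.28 in the normoxic and hypoxic control), Socs5 (7.21 and 7.08), Socs1 (4.88 and 3.69) and Socs3 (3.07 and 2.82). With IFN-γ, Socs1 came next after the phosphatases, at 12.2 and 11.9 CPM per kilobase, above Socs7, and Socs3 kept its place below Socs5. Socs4 (2.26 to 2.71) and Socs6 (1.98 to 2.33) overlapped in range, and Socs2 (0.670 to 1.18) and Cish (0.205 to 0.294) were lowest. The order was the same with the union of exons as length. RefSeq gives Socs1 a span of 1729 bases against 2908 exonic bases in GENCODE, and on that span its level would be 8.22 and 6.21 CPM per kilobase in the controls and 20.6 with IFN-γ in normoxia, which moves it above Socs5 in the normoxic control.

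Summed over the 8 SOCS genes, the level per kilobase was 29.5 and 28.6 CPM in the controls and 41.0 and 40.9 CPM with IFN-γ. Socs1 and Socs3 together made up 26.9% and 22.7% of this sum in the normoxic and hypoxic control, and 42.7% and 43.8% in the IFN-γ libraries. In counts, Socs1 and Socs3 held 763 of 5100 and 620 of 5145 SOCS family counts without IFN-γ, and 1685 of 6466 and 1712 of 6416 with it. The largest single share passed from Socs7 in the controls, 29.3% and 32.4%, to Socs1 in the IFN-γ libraries, 29.8% and 29.1%.

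**Figure D4:**
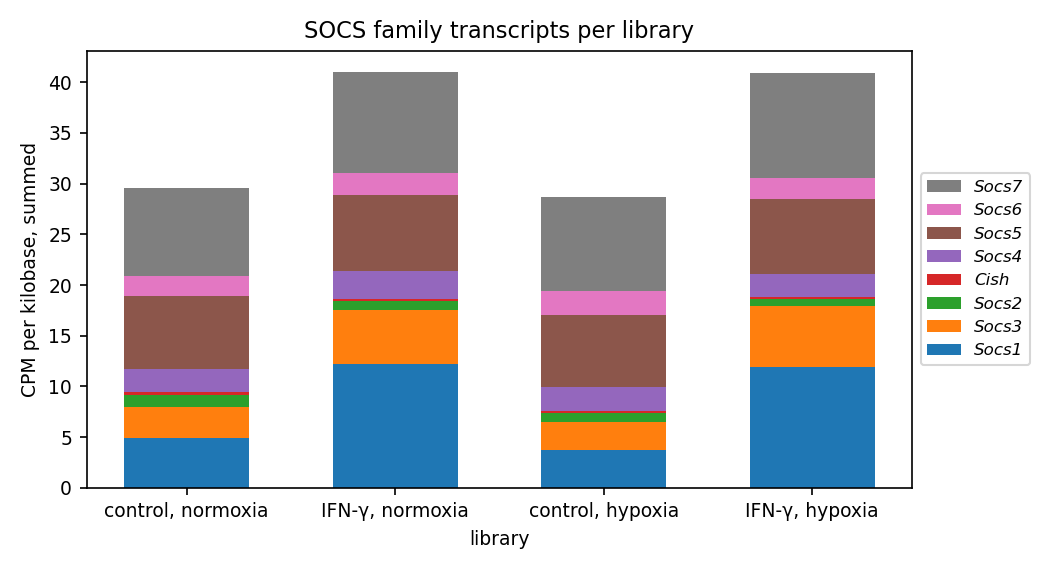
Stacked CPM per kilobase of longest coding transcript for the 8 SOCS family genes in each library, with no error because each bar is 1 library. The total is 29.5 and 28.6 in the controls and 41.0 and 40.9 with IFN-γ, and the blocks of Socs1 and Socs3 hold most of the difference.

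Of the receptors, kinases and STATs on which these brakes act, all 16 listed genes were tested. IFN-γ raised 4, among them Stat2, Stat3 and Jak2, and lowered 1 (Ifngr1), against 4.76% and 1.1% of all tested genes. Stat2 rose by a log2 change of 1.51 (standard error 0.0583) and Jak2 by 0.56 (standard error 0.0751). Per 100 counts of Jak2, the counts of Socs1 were 43.2 without and 76.7 with IFN-γ in normoxia, and 27.6 and 58.2 in hypoxia. For Socs3 there were 11.3 and 12.8 counts per 100 of Stat3 in normoxia and 12.2 and 13.2 in hypoxia. Ifngr1, which encodes the ligand-binding chain of the IFN-γ receptor, had a log2 change of -0.25 (standard error 0.0780). With hypoxia, 6 of the 16 rose (Jak3, Stat6, Jak2, Jak1, Stat2 and Ifngr1) and none fell, against 8.21% and 6.83% of all tested genes. The median log2 change of the 16 with hypoxia was 0.16.

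Among 11 other brakes on cytokine signaling, IFN-γ raised 1, Usp18, an enzyme that removes ISG15 and shuts off the type I interferon receptor. Usp18 had 740 and 1374 counts under normoxic and 802 and 1244 under hypoxic conditions, a log2 change of 0.78 (standard error 0.0818). None of this list fell with IFN-γ and the median was -0.04. Over all tested genes IFN-γ raised 4.76% and lowered 1.1%. Hypoxia raised 1 of the 11, Cblb, a ubiquitin ligase that dampens immune receptor signals, with a log2 change of 0.41 (standard error 0.0985). That is near the 8.21% of all tested genes that hypoxia raised. Of 13 other non-receptor tyrosine phosphatase genes, the relatives of Ptpn1 and Ptpn2, 12 were tested and none changed with IFN-γ. Ptpn3 was the 1 of these 12 that rose with hypoxia, against 8.21% of all tested genes. It had 430 against 588 counts in the control pair and 467 against 518 in the IFN-γ pair, or 0.30 in log2 units (standard error 0.106). Ptpn13 had 4 and 12 counts in the normoxic and 2 and 14 in the hypoxic pair and did not pass the test.

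The genes most like Socs1 over the 4 libraries were sought among 11488 others with a mean of at least 50 counts, by the distance between log2 CPM values centered on their own mean. The 5 nearest were Ntn1, C1ra, Irf7, Serpinb9 and Cxcl10, at distances of 0.20 to 0.32 log2 units. C1ra, which encodes a complement protease, had 459 and 1005 counts in the normoxic and 380 and 1072 in the hypoxic pair. Irf7, an interferon regulatory factor, had 339 and 788 counts and 309 and 878 counts. For Socs2, the gene with the largest hypoxia estimate, the 5 nearest were Kcnn1, Rasl11a, Zfp936, a gene without a symbol and 2210408I21Rik, at 0.02 to 0.12 log2 units. Kcnn1, a potassium channel gene, had 188 and 147 counts in normoxia and 134 and 108 in hypoxia. These lists describe 4 libraries and were not tested.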

How the data were processed

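Poly-A selected, strand-specific libraries were sequenced from both ends on the DNBSEQ platform. Reads were aligned with HISAT2 per the study's methods, and the submitters' processing notes name featureCounts and the build mm10; versions, annotation and settings are not given in the sources used here. The authors deposited whole-number counts per gene for the 4 libraries, without normalization. Symbols came from an NCBI table for GRCm38.p6, which matched 25275 of 27179 IDs.

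Genes were tested by quasi-likelihood in edgeR (4.0.16, R 4.3.3) with TMM, edgeR's default low-count filter (minimum 10), an additive model of oxygen and IFN-γ, and Benjamini-Hochberg adjustment over 13580 genes at 0.05. The common dispersion corresponded to a coefficient of variation of 4.71%. Changes within pairs are log2 ratios of TMM-scaled CPM with 0.5 counts added, and the interval of the difference between pairs is from Poisson error. Alternatives were DESeq2 (1.42.0), other size factors, filters, terms, folds and pseudocounts, with halved counts added after seeing the data.

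The members and gene lists were chosen with earlier results of these data known. Named genes are all members, listed genes that passed the test, and the 5 nearest genes by pattern. Elob, Eloc, Cul5, Rnf7, Cul2, Arih2 and Ptpn13 were named after their values were seen, and Irf1 and Car9 check the labels. At most 7.28% of the 31-base words of a member's transcripts (Socs6) occur in another GENCODE M21 gene. Some listed genes are not reported here. No sequencing batch is given in the labels or methods.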

Additional observations from a re-analysis of the deposited data

Results flagged for a closer look

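For 6 genes a change had opposite signs in the 2 pairs of libraries it was measured in. How many of all tested genes show this was not counted, so the number has no background. None of these differences could be tested with 1 library per condition. The IFN-γ change in hypoxia minus that in normoxia was -0.28 on the log2 scale for Socs4, -0.25 for Socs6, -0.12 for Ptpn1 and -0.06 for Ptpn2. Their IFN-γ changes were above 0 under normoxic and below 0 under hypoxic conditions. The normoxic change of Ptpn1 (0.004) and the hypoxic change of Ptpn2 (-0.006) were too near 0 to give a direction. In a design of 4 libraries, each such difference is also the hypoxia change with IFN-γ minus that without it. By that contrast Socs4, Socs6 and Ptpn1 again had opposite signs. Socs3 (0.30) and Cish (0.27) had hypoxia changes below 0 in the control pair and above 0 in the IFN-γ pair. For Cish these came from 24 against 29 counts and 20 against 20 counts, the latter a change of 0.001. With halved counts the counting intervals of all 6 differences held 0.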

How the results depend on the processing

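Socs1 and Socs3 stayed raised by IFN-γ in all 7 alternative fits of edgeR and DESeq2, with adjusted p-values up to 0.00320 and 0.0198, and in each pair of libraries alone. The highest values came from comparing 2 libraries with 2 without oxygen in the model. No other gene of the 10 passed the threshold for either stimulus in any of these fits. The adjusted p of Socs7 with IFN-γ was lowest in edgeR with halved counts, at 0.0869. It was 0.175 in edgeR with total counts, 0.918 in edgeR without oxygen in the model and 0.9999 in DESeq2. No fitted change of a member turned its direction between fits over all 4 libraries, and DESeq2 gave no adjusted p for Socs2 and Cish with hypoxia. With a limit of 2-fold in place of 1.5-fold, 1 gene, Socs1, was higher with IFN-γ in both pairs. With a lower fold limit, 1 gene, Socs2 (-0.50 and -0.45 in log2 units), was lower with hypoxia in both pairs. The number of genes whose IFN-γ changes differed beyond counting error fell from 3 to 1, Socs1, with a 99% interval and to 1 with halved counts, and was 4 with total counts in place of TMM. Total counts in place of TMM and 5 counts added left the counts of genes past 1.5-fold as they were. Beyond the oxygen term, which sets each IFN-γ library against the control of its own oxygen level, no paired analysis was possible because each condition had 1 library. Leaving out 1 library leaves no residual degrees of freedom, so those fits are given as single pairs. Depth limits Cish and Socs2 most, with 20 to 91 counts per library.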

Other observations

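No call was made among the partners that turn a SOCS box into a ubiquitin ligase. Over all tested genes, IFN-γ raised 4.76% and lowered 1.1%, and hypoxia raised 8.21% and lowered 6.83%. All 9 listed genes, among them Elob and Eloc (elongins B and C), Cul5 and Rnf7 (the RING protein RBX2), were tested, and none passed an adjusted p of 0.05 in edgeR for IFN-γ or hypoxia. Their log2 changes with IFN-γ ran from -0.08 to 0.17, the highest being that of Cul2 (standard error 0.0649), and the highest hypoxia value was 0.17 for Arih2 (standard error 0.0699, edgeR adjusted p of 0.0828). Elob had 5698 and 5726 counts in the normoxic and 6229 and 5428 in the hypoxic pair, and Cul5 had between 1539 and 1778 counts in the 4 libraries.

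Of 27 other genes for proteins with a SOCS box, 16 were tested. IFN-γ raised 2, Asb13 (log2 change 0.40, standard error 0.0817) and Wsb2 (0.30, standard error 0.0631), and lowered none. The shares over all tested genes were 4.76% raised and 1.1% lowered. Hypoxia raised 3, Spsb1 (0.55, standard error 0.130), Wsb1 (0.33, standard error 0.0576) and Wsb2 (0.22, standard error 0.0631), and lowered none. The shares over all tested genes were 8.21% raised and 6.83% lowered. Spsb1, an adaptor that targets inducible nitric oxide synthase for degradation, had 220 and 330 counts in the normoxic and hypoxic control, and 284 and 407 counts in the IFN-γ libraries. Wsb1 had 4784 against 6321 counts in the control pair and 5472 against 6572 in the IFN-γ pair.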
